A study of Mus musculus with 2 samples.

Results

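The genes described here encode 3 desmosomal cadherins (Dsc2, Dsc3 and Dsg2), 4 classical cadherins (Cdh1, Cdh2, Cdh5 and Cdh11) and 3 proteins of the cytoplasmic plaque (Jup, Pkp2 and Dsp). They were chosen by name, with earlier results of these data known, as 10 of the 18194 genes on the array. They take in all 25 probe sets annotated to exactly 1 of these symbols. A probe set is a group of short oligonucleotides that together report 1 transcript. Signals came from whole mouse embryos collected 8.5 days post coitum (dpc). One array held RNA of embryos with maternal disomy, whose whole pair of chromosome 18 is of maternal origin (matUPD18), and 1 array held RNA of embryos whose pair is of paternal origin (patUPD18). Neither the mouse crosses nor the number of embryos in each RNA is given in the sources used here. With 1 array per genotype there is no replicate and no test, so each difference is between these 2 arrays and has no error of its own.

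Cadherins are calcium-dependent adhesion proteins that bind like proteins on neighbouring cells. Classical cadherins hold adherens junctions together and connect to actin through catenins. Desmosomal cadherins, the desmocollins and desmogleins, connect through plakoglobin, plakophilins and desmoplakin to intermediate filaments, and they matter most where tissue is under strain, as in epithelia and the heart. In the early embryo, E-cadherin marks epithelia, N-cadherin marks neural plate, mesoderm and heart, and cells that leave an epithelium exchange the former for the latter. Dsc2, Dsc3, Dsg2 and Cdh2, 4 of the 10 genes, lie on chromosome 18, the chromosome whose parental origin differs between the embryos.

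The 2% trimmed mean signal was 500.003 in matUPD18 and 500.004 in patUPD18. Signals under the 40th percentile of an array (84.2 and 82.5, called the floor) were raised to it before taking log2, and a probe set was counted as measurable where its higher signal reached the 60th percentile of its array (190.1 and 184.9). Where only the lower signal is under the floor, a fold is given as "at least", and where both are, none is given. Impact, the paternally expressed imprinted gene used as a check of the labels, read 328 in matUPD18 and 2466 in patUPD18 (brightest probe set), but a further measurable one, at 268 and 205, did not share the direction. The 3' over 5' signal of Gapdh was 33.95 and 36.4 on the arrays, so probe sets far from a 3' end can read low on both. Most marker genes of heart, neural plate, mesenchyme and endothelium were measurable, as for a whole embryo (9 of 10, 8 of 8, 8 of 8 and 9 of 11).

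Most of these genes read somewhat higher in matUPD18. Of the 10 genes, 8 were measurable by their brightest probe set, each of these on both arrays, and 7 of the 8 read higher in matUPD18, under the deposited scaling and under the 3 other scalings tried. Over all 10484 measurable genes, 46.1% read higher in matUPD18. The desmocollin Dsc2 was the 1 gene of the set past 2-fold, against 2.70% of all measurable genes in that direction. No member passed 2-fold toward patUPD18, against 1.78% of all measurable genes. The median log2 ratio (matUPD18 over patUPD18) was 0.37 over the 8 genes and -0.04 over all measurable genes. The 2 genes without a measurable signal were Dsc3 and Jup.

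Counted by probe set, the direction was the same, but this is not a separate count. Of the 25 probe sets, 15 were measurable, and 12 of these reached the limit on both arrays. The other 3, namely 2 of Dsg2 and 1 of Cdh11, were measurable through the matUPD18 array alone and so had to read higher there. Among the 12, which include the 8 brightest probe sets already counted by gene, 11 read higher in matUPD18, and the exception belonged to Dsp. Over all 16702 measurable probe sets, 48.3% read higher in matUPD18. These include probe sets measurable through 1 array alone, so the like count among the members is 14 of 15. A single member probe set, that of Dsc2, passed 2-fold in matUPD18 and none did in patUPD18, against 3.27% and 1.95% of all measurable probe sets. Measurable probe sets of 1 gene differed by a pooled standard deviation of 0.25 in log2 ratio among the members (12 probe sets of 5 genes) and by 0.44 over all genes. Of the 8 gene ratios, by brightest probe set and deposited scaling, 4 exceeded 0.44 in size, those of Dsc2, Cdh1, Cdh11 and Pkp2. Pkp2 (0.46) was 0.42 after median scaling and 0.27 by its second brightest probe set. Dsg2 (0.28) was 0.76 by its second brightest probe set. Which genes exceed 0.44 thus depends on the probe set read. The pooled standard deviation is between probe sets on the same 2 arrays and does not hold the variation between embryos. Its sources were not tested.

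**Figure D1:**
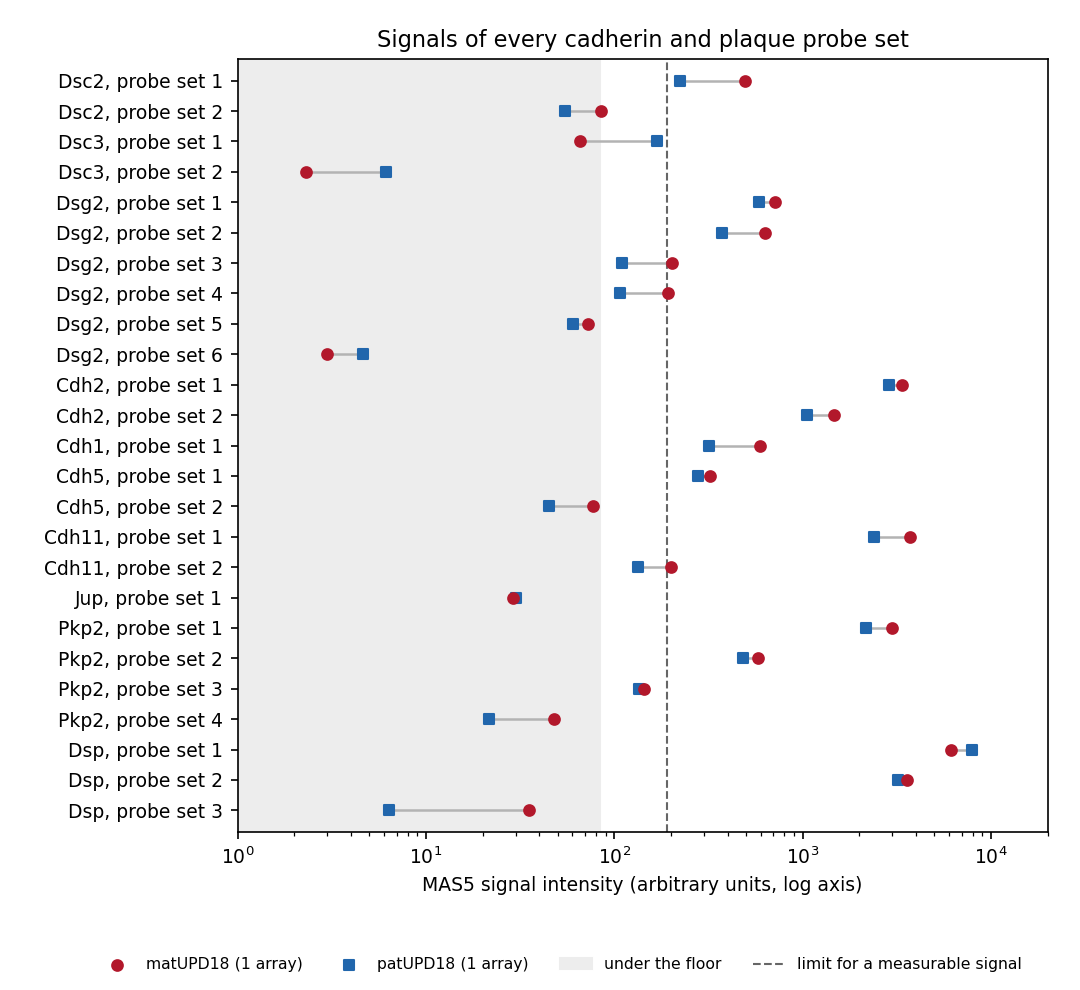
Signal of each of the 25 probe sets (rows, brightest first within a gene) on the matUPD18 array (circles) and the patUPD18 array (squares), on a log axis; the grey band is under the floor and the dashed line is the measurable limit. Circles lie to the right of squares for 14 of the 15 measurable probe sets, with Dsp probe set 1 the exception. Among the 12 that reached the limit on both arrays the count is 11. The rest were measurable through the matUPD18 array alone and had to read higher there.

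Of the measurable desmosomal cadherins, Dsc2 and Dsg2, Dsc2 differed more. Dsc2, a desmocollin of simple epithelia and heart, read 497 in matUPD18 and 223 in patUPD18 by its brightest probe set, a 2.24-fold difference (log2 ratio 1.16). Its other probe set read 85.4 and 54.5, just above and under the floor, at least 1.04-fold higher in matUPD18 and below the measurable limit. Among all measurable genes the Dsc2 ratio ranked 185th of 10484, and on chromosome 18 it ranked 8th of 269, where 4.09% of genes passed 2-fold in this direction. In group 2 of 5 equal groups of genes by mean signal, which holds Dsc2 (mean signals from 281.7 to 522), 2.62% did so. Under the other scalings its log2 ratio ran from 1.11 to 1.13.

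Dsc3, the desmocollin typical of stratified epithelium, read the other way but was dim. Its brighter probe set gave 65.8 for matUPD18 and 168 for patUPD18, which is at least 1.997-fold higher in patUPD18, yet 168 is under the measurable limit. With the floor at the 20th percentile its log2 ratio was -1.35, from signals that reached the measurable limit on neither array. The other probe set read 2.32 and 6.15, far under the floor on both arrays. Dsc3 and Dsc2 are neighbours on chromosome 18, so the brighter probe sets of these adjacent desmocollin genes differed in opposite directions. No error can be set on that contrast with 1 array each.

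Dsg2, the desmoglein found in most desmosome-bearing tissues, has 6 probe sets, more than any other member, and they disagreed in size. The brightest read 710.3 in matUPD18 and 586 in patUPD18, a 1.21-fold difference. The second brightest read 635 and 374, a 1.70-fold difference. The next read 202 and 110.1 (1.83-fold) and 193 and 107 (1.81-fold), each measurable through the matUPD18 array alone, so that their direction was fixed by the limit. The remaining pair lay under the floor on both arrays, at 72.6 and 60.7 and at 2.99 and 4.64. By the 2 probe sets that reached the limit on both arrays, Dsg2 was thus 1.21-fold or 1.70-fold higher in matUPD18 (log2 ratios of 0.28 and 0.76). None of the 6 gave a measured difference of 2-fold.

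Cdh2 (N-cadherin), the classical cadherin of neural plate, mesoderm and heart, was well above the measurable limit on both arrays. It read 3367 in matUPD18 and 2873 in patUPD18 by the brighter probe set, a 1.17-fold difference. The other read 1472 and 1057, a 1.39-fold difference in the same direction. The log2 ratios of 0.23 and 0.48 lie under and just over the standard deviation of 0.44 between probe sets of a gene over the array. Cdh2 lies on the same chromosome as Dsc2, and neither of its probe sets reached 2-fold.

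In gene order on chromosome 18, the 3 measurable genes before Cdh2 are Ss18, Taf4b and Kctd1, and those after the desmosomal cadherin cluster are Ttr, B4galt6 and Trappc8. Kctd1 was 1.11-fold higher in patUPD18, and Ss18 was 1.06-fold higher in patUPD18, though this turned round under quantile and loess scaling. Taf4b, a transcription initiation factor subunit, had log2 ratios of 0.96 and 0.26 by its 2 measurable probe sets. Ttr, the next measurable gene after Dsg2, encodes the thyroid hormone carrier transthyretin and is strong in yolk sac. It read 11979 in matUPD18 and 1349 in patUPD18, an 8.88-fold difference. Dsg2 next to it differed by 1.21-fold by its brightest probe set and by 1.70-fold by its second brightest. B4galt6, a glycosphingolipid galactosyltransferase gene, differed 1.56-fold toward matUPD18 where brightest, and log2 ratios of the 3 dimmer measurable probe sets ran from -0.24 to 0.38. Trappc8, a vesicle tethering subunit gene, differed 1.22-fold the same way. Over all 269 measurable genes of the chromosome the median log2 ratio was 0.05, and over the 3 measurable cadherins there it was 0.28.

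**Figure D2:**
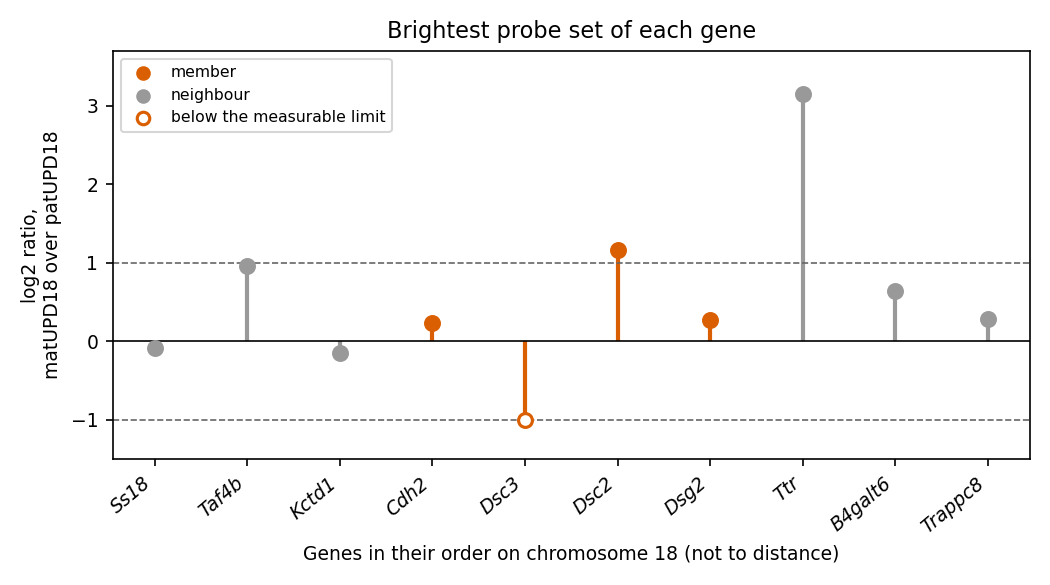
Log2 ratio (vertical axis, matUPD18 over patUPD18) of the brightest probe set of each gene, in gene order on chromosome 18 and not to distance; orange marks the cadherins, grey the neighbours, an open circle a gene below the measurable limit, and dashed lines 2-fold. Ttr stands highest at 3.15, Dsc2 is at 1.16 and Dsc3, not measurable, is the lowest point, by at least 1.997-fold.

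The cadherins encoded elsewhere showed the same direction as Dsc2. Cdh1 (E-cadherin), the adhesion protein that defines epithelia, has a single probe set here. It read 593 in matUPD18 and 318 in patUPD18, a 1.86-fold difference (log2 ratio 0.90), just under the 2-fold threshold. Cdh11, a cadherin of mesenchyme and later of bone-forming cells, read 3729 and 2406 by its brightest probe set, 1.55-fold higher in matUPD18. Its other probe set read 199 and 134 (1.49-fold), but was measurable through the matUPD18 array alone, so its direction adds nothing. An epithelial and a mesenchymal cadherin thus both read higher on the same array. Cdh5 (VE-cadherin), the cadherin of endothelial junctions, differed least of the measurable classical cadherins, with 322 in matUPD18 and 279.7 in patUPD18 (1.15-fold). Its other probe set lay under the floor, at 77.1 and 45.0. Cdh1, Cdh5 and Cdh11 all lie on chromosome 8, which is not the disomic chromosome.

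Of the plaque proteins, only Pkp2 gave a direction. Pkp2 (plakophilin 2), which anchors desmoplakin at the membrane and is the main plakophilin of heart, read 2981 in matUPD18 and 2162 in patUPD18 by its brightest probe set, a 1.38-fold difference. Its second probe set read 582 and 481 (1.21-fold), the next 144 and 135, under the measurable limit, and the last 47.6 and 21.6, under the floor. Both measurable Pkp2 probe sets thus read higher in matUPD18. Dsp (desmoplakin), which links the plaque to keratin or desmin filaments, read 6131 in matUPD18 and 7935 in patUPD18 by its brightest probe set, 1.29-fold higher in patUPD18. Its second probe set read 3580.0 and 3198, 1.12-fold higher in matUPD18, so no direction can be given for Dsp. Its last read 35.4 and 6.37, under the floor on both arrays. Dsp is in the brightest of the 5 groups of genes by mean signal, whose median log2 ratio was -0.12. Cdh2, Cdh11 and Pkp2 are in the same group and read above 0.

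Jup (plakoglobin), the catenin shared by adherens junctions and desmosomes, could not be measured. Its single probe set gave 29.0 in matUPD18 and 30.1 in patUPD18, near the 20th percentile of the arrays (20.3 and 21.3) and under the floor on both.

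Of the 10 genes, Dsp and Jup were matched in the RefSeq promoter table (GRCm38.p6). The stretches before their start sites are shown because only these 2 members had an entry there. Jup was read by a single probe set, and whether that probe set works could not be told. Any link between these stretches and the signals was not tested. Each runs 5' to 3' on the gene's own strand and stops before the outermost annotated start of the gene. Capitals mark GC boxes, searched as GGGCGG and its complement CCGCCC, which is both strands. The Dsp stretch is chr13:38151044-38151293 (plus strand, 250 bases) and the Jup stretch is chr11:100397840-100398040 (minus strand, 201 bases).
Dsp: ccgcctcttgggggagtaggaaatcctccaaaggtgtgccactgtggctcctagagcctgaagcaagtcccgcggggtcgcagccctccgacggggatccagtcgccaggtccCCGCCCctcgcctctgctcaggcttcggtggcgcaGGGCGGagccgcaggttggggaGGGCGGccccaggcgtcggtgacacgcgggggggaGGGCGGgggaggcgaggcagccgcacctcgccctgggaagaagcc
Jup: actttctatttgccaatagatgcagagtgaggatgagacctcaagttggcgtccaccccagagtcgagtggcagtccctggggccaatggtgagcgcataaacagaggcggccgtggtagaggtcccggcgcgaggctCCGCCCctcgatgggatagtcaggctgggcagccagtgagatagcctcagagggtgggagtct

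The Dsp stretch holds 4 GC boxes and the Jup stretch 1. At least 1 GC box occurs in 32.7% of all 32851 promoters over 250 bases and in 31.1% over 201 bases. The bases G and C make up 72.4% of the Dsp stretch and 60.2% of the Jup stretch. Medians over all promoters were 52.4% and 52.7% in windows of the same lengths. Windows over all promoters, here and for the boxes, were not cut at the outermost annotated start of the gene. The E-box bound by the Snail and Zeb repressors, searched as CAGGTG and CACCTG (both strands), is in neither stretch, and occurs in 17.2% of promoters over 250 bases and in 14.0% over 201. These are letter matches in short windows and say nothing of which factors bind.

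Set among all genes, the members lay inside the cloud. By brightest probe set, the next gene after Dsc2 in size was Cdh1, and the remaining 6 measurable members were within 1.55-fold. Dsg2, among these 6, differed 1.70-fold by its second brightest probe set.

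**Figure D3:**
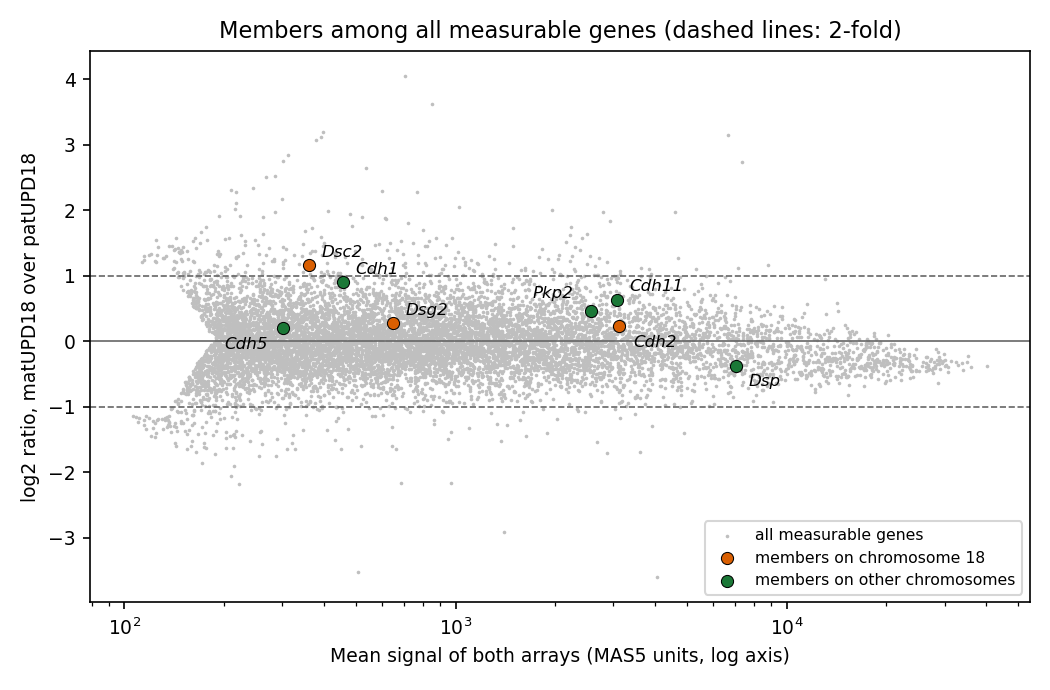
Log2 ratio (matUPD18 over patUPD18) against the mean signal of both arrays (log axis) for all 10484 measurable genes (grey), with the 8 measurable members named; dashed lines mark 2-fold. Dsc2, at 1.16, is the only member beyond a dashed line, and Dsp, at -0.37, is the only one below 0.

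The partners of these proteins did not share a direction as a group. Of 12 further desmosome genes, 9 were on the array and 4 measurable, none past 2-fold in either direction, with a median log2 ratio of 0.25. Ppl (periplakin) read 403 and 294, a log2 ratio of 0.45, and Pkp3 read 212 and 150.7, a log2 ratio of 0.49, measurable through the matUPD18 array alone. Perp (-0.06) and Pkp4 (0.04, but just below 0 after median scaling) were level. The skin desmosome genes Dsc1, Dsg1a, Dsg1b, Pkp1 and Evpl, 5 in all, lay under the floor on both arrays.

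All 12 catenin and adherens junction genes were on the array and 10 were measurable, of which 4 read higher in matUPD18 and none passed 2-fold. Their median log2 ratio was -0.13, and 0.05 after quantile and 0.01 after loess scaling, so the group has no settled direction. Arvcf (-0.46) and Ctnnd1 (p120 catenin, -0.43), which bind the juxtamembrane part of cadherins, were lowest, and Vcl (vinculin, 0.40) and Nectin1 (0.38) were highest. Ctnnb1, the beta-catenin that binds classical cadherins, read 20974 and 25428 (log2 ratio -0.28), and Ctnna1, alpha-catenin and itself on chromosome 18, read 16878 and 19553 (-0.21). Both ratios changed sign after quantile scaling, and these genes were chosen for naming after their values were seen. Of 18 other cadherins, 16 were on the array and 5 measurable, with log2 ratios from -0.75 (Cdh22) and -0.38 (Cdh4) to 0.49 (Cdh6) and 0.50 (Cdh10), where Cdh4 and Cdh10 were measurable through their higher array alone.

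Regulators of the exchange of E-cadherin for N-cadherin included 8 measurable genes of 12, 6 of them higher in matUPD18 and none past 2-fold (median log2 ratio 0.34). One of the 8, Grhl3, was measurable through the matUPD18 array alone. The epithelial activators Grhl2 (372 and 262) and Grhl3 (256 and 181) had log2 ratios of 0.50 each. Zeb1, a repressor of Cdh1 that lies on chromosome 18, read 2894 in matUPD18 and 4860.0 in patUPD18, a log2 ratio of -0.75, and Twist2 was level at -0.04. The other mesenchymal regulators did not follow Zeb1, with log2 ratios of 0.44 for Snai2 (4341 and 3200.1), 0.40 for Zeb2 and 0.29 for Twist1. 

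Among cell type marker lists with at least 3 measurable genes, those of visceral endoderm and red cells had medians further from 0 than the 8 members. All 12 visceral endoderm markers, genes of the outer yolk sac epithelium that itself carries E-cadherin and desmosomes, were measurable and higher in matUPD18. Of the 12, 11 were so by at least 2-fold, against 2.70% of all measurable genes. This list, like the others, was chosen with earlier results of these data known. Of these markers, 8 were measurable through the matUPD18 array alone and so had to read higher there, while 4 reached the limit on both arrays. Their summed signal was 35287 in matUPD18 and 5253 in patUPD18, and none lay under the floor on both arrays. Log2 ratios ran from 0.87 (Hnf4a) and 1.97 (Amn) to at least 3.20 (Apom) and at least 4.05 (Apoa1). The part of these cells in the Dsc2, Dsg2 and Cdh1 values was not tested, and in bulk RNA fewer cells of a type and less RNA per cell cannot be told apart. The embryonic red cell markers went the other way, with 9 of 9 higher in patUPD18 (1 of them measurable there alone). Of the 9, 6 were so by at least 2-fold, against 1.78% of all measurable genes. Their summed signals were 46292 in matUPD18 and 71322 in patUPD18 over the list. Log2 ratios of the red cell markers ran from Ermap (-1.65) and Slc4a1 (-1.40) to Hbb-bh1 (-0.60) and Hbb-y (-0.43).

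In median log2 ratio, the lists of simple epithelium and surface ectoderm markers differed less between the arrays than the visceral endoderm list. Of 12 simple epithelium markers, 9 were measurable and 7 of these read higher in matUPD18, with a median log2 ratio of 0.27 and summed signals of 12320 and 10939 over the 12. Epcam (0.51) and Krt19 (0.59) were highest, whereas the keratin gene Krt18 read 497 in matUPD18 and 1404 in patUPD18 (2.82-fold higher in patUPD18). The 3 measurable surface ectoderm markers of 5 were all lower in matUPD18, namely Tfap2c (-0.50), Trp63 (-0.28) and Tfap2a (-0.01). Cdh1, at 0.90, was above all 12 of these measurable epithelial markers in log2 ratio.

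For the cadherins of other tissues, the matching markers were mixed. Of 9 measurable endothelial markers of 11, 5 were higher in matUPD18 (median 0.29), from Emcn (-0.70) and Cldn5 (-0.34) to Sox18 (0.73) and Flt1 (0.74), beside 0.20 for Cdh5. Emcn and Sox18 were measurable through their higher array alone. Pecam1 and Tie1, 2 defining endothelial genes, lay under the floor on both arrays. Of 8 mesenchyme markers, 4 were higher in matUPD18, from Prrx1 (-0.76) and Col3a1 (-0.69) to Pdgfra (0.78) and Col1a1 (0.83), beside 0.63 for Cdh11. Cardiac muscle markers, of which 9 of 10 were measurable, had a median of -0.08 that was above 0 after quantile (0.01) and loess (0.02) scaling, from Actc1 (-0.51) and Myl3 (-0.49) to Myh6 (0.08) and Myl4 (0.31), beside 0.46 for Pkp2 and 0.23 for Cdh2. Neural plate markers had a median of -0.08, from Fabp7 (-1.61) and Hes5 (-1.12) to Pax6 (0.51) and Otx2 (0.56). Of 6 trophoblast markers, Hand1 alone was measurable (0.50), and Tpbpa and Ascl2 lay under the floor on both arrays.

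**Figure D4:**
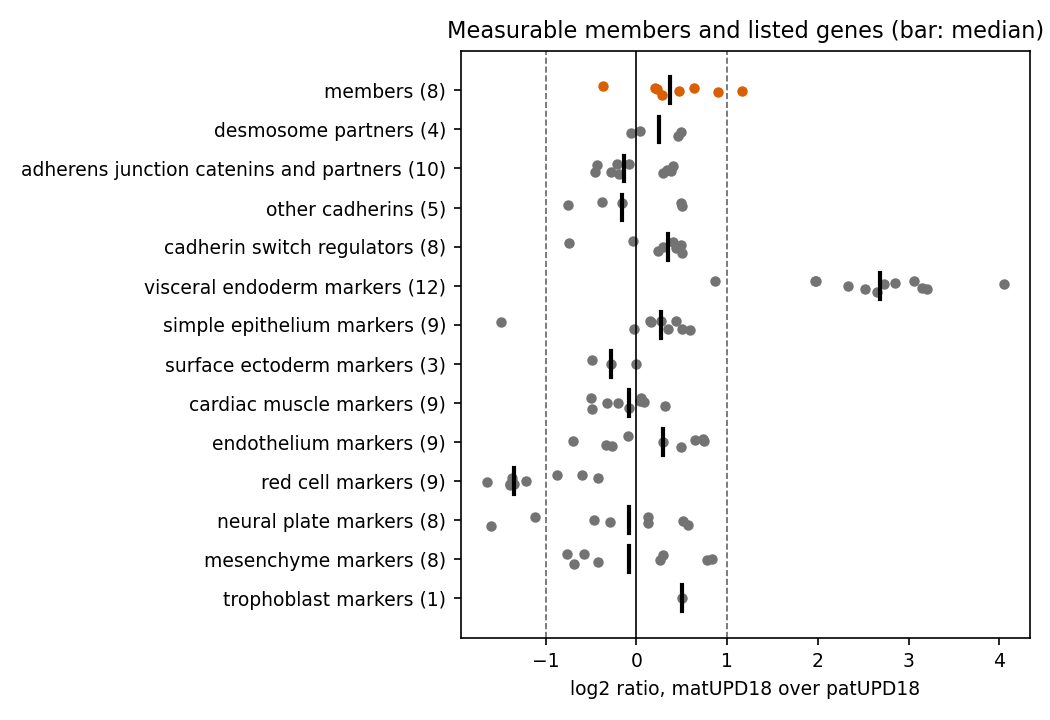
Log2 ratio (matUPD18 over patUPD18) of each measurable gene, 1 dot per gene, for the 8 members (orange) and 13 lists (grey, number of genes in brackets); bars are medians and dashed lines 2-fold. The member median is 0.37, the visceral endoderm median 2.69 and the red cell median -1.35.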

How the data were processed

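Signal intensities of 45101 probe sets were used, 1 array per genotype. The authors deposited MAS5 intensities, made with MAS5 and GCOS (version not stated) per the submitters' processing notes. The RNA was, per the labels' protocols, amplified, labelled with biotin and hybridised. No detection calls were used.

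A symbol was listed for exactly 1 gene for 34958 probe sets, for several genes for 932 and for none for 9211 (Affymetrix controls included). Symbols were updated through the Entrez identifier (34754 matched) with the mouse RefSeq table (GRCm38.p6), which gave chromosomes and gene order too. The build behind the array is not given; the only coordinates printed are those of the 2 promoter stretches, on GRCm38.p6, and they were not used to place probe sets. Each gene was read by its brightest probe set on mean signal. The members and lists were chosen with earlier results of these data known.

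Named genes were the members, the 2 highest and 2 lowest measurable genes of each list, the 3 measurable neighbours on each side of the chromosome 18 cadherins, and Impact. Genes named as under the floor, Ctnnb1, Ctnna1, Snai2, Zeb2, Twist1 and Cdh3 were chosen after their values were seen. The number of arrays limits the precision. The scripts were tested on simulated data. Python 3.11.15, pandas 2.3.3, numpy 2.4.6, statsmodels 0.14.6 and matplotlib 3.10.9 were used.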

Additional observations from a re-analysis of the deposited data

How the results depend on the processing

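Alternatives were median, quantile and loess scaling, floors at the 20th and 60th percentile, measurable limits at the 50th and 70th percentile, the median over probe sets, omission of the _s_at and _x_at probe sets, shared between transcripts, and other fold thresholds. The member median stayed between 0.28 and 0.49. At 1.5-fold, 3 member genes were higher in matUPD18, against 9.97% of all measurable genes, and 0 were higher in patUPD18, against 8.74%. At that threshold 6 member probe sets were higher in matUPD18, against 11.4% of all measurable probe sets, and 2 of the 6 were measurable through that array alone; 0 were higher in patUPD18, against 8.75%. At 3-fold 0 genes and 0 probe sets were higher in matUPD18, against 0.458% and 0.587%. Dsc2 kept its direction and stayed past 2-fold in all 7 settings tried for it (log2 ratios from 1.11 to 1.16). Only the median, quantile and loess scalings could change its value. Its 1 measurable probe set lies above both floors and is not a shared one, so the other settings left it at 1.16. Dsg2 ran from 0.24 to 0.81, with 0.76 when sets shared between transcripts were left out. With the limit at the 50th percentile, Dsc3 was measurable (at least 1.997-fold higher in patUPD18), so 7 of 9 member genes were higher in matUPD18. For Dsc3 the floor at the 60th percentile and the median over probe sets gave no value. Jup, whose main value is under the floor, was left out of these settings. Its signals, at percentiles 20.3 and 21.3 of the arrays, lie just above a floor at the 20th percentile. Over the whole array, 78 genes in place of 187 passed 2-fold toward patUPD18 when the floor was at the 60th percentile. No paired analysis was possible because each genotype has 1 array. No array could be left out for the same reason.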

Other observations

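Cdh3, which encodes P-cadherin of the placenta, yolk sac and early epithelia and lies on chromosome 8 as Cdh1 does, was looked at after its values were seen. Its 2 probe sets were below the measurable limit and read in opposite directions. One read 165 in matUPD18 and 65.7 in patUPD18, at least 2.003-fold higher in matUPD18, and the other read 53.3 and 122.0, at least 1.45-fold higher in patUPD18.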
